A study of Mus musculus with 6 samples.

Results

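The genes described here are those of the cytosolic ribosomal proteins, measured in mice deficient (KO) for TIARP and in wild-type (WT) mice. A gene was included when the array file named it Rpl, Rps or Rplp with a number, leaving out names marked as pseudogenes and the S6 kinase genes, whose names begin with Rps6k. This gave 85 of 34797 gene names. Of these, 76 were canonical ribosomal proteins (46 of the large subunit and 30 of the small subunit), 8 were paralogs of a canonical gene, and 1, Rps19bp1, encodes a protein that binds Rps19 and is not part of the ribosome. Ribosomal proteins with names of another form, among them Rpsa, Fau and Gnb2l1 (Rack1), were kept apart as a list beside the others. In the files 187 probes carried the 85 names, and 58 genes had more than 1 probe, so each gene was represented by its brightest probe.

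The cytosolic ribosome is built from a large and a small subunit, each made of ribosomal RNA and a fixed set of proteins, nearly all needed in equal amounts. Most of their messages begin with a C followed by a run of pyrimidines, the 5′ terminal oligopyrimidine (TOP) tract, through which the kinase mTORC1 controls their translation. Mitochondria hold a separate ribosome, whose proteins are encoded by the Mrpl and Mrps genes. Ribosomal protein messages are among the most abundant in most cells, and the mouse genome holds many processed copies of these genes, so that a probe may also pick up RNA of a copy.

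Expression was measured on 6 single-colour Agilent arrays, 1 for each group. The 6 groups were TIARP-/- (KO) peritoneal macrophages, TIARP+/+ (WT) peritoneal macrophages, KO and WT peritoneal macrophages given TNFα for 24 hours, and Ly6G+ neutrophils of KO and WT mice taken from spleen with magnetic beads. All mice were labelled C57BL/6, and the macrophages were elicited with thioglycollate medium 3 days before collection. The labels number 3 mice per group. Whether their RNA was pooled, the dose of TNFα, the time in culture of the macrophages without TNFα, the ages of the mice and the deleted part of the gene are not given in the sources used here. The gene Steap4 encodes TIARP, an enzyme of cell membranes that reduces iron and copper.

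With 1 array per group no difference within a condition had a replicate check or a test. KO and WT could be tested only over the 3 conditions together, and that fit is given after the single comparisons. Differences are on the log2 scale after each array was scaled to its 75th percentile signal. A gene was called higher or lower when the difference was at least 1 (2-fold) and the array with the higher signal passed the scanner software's test of being well above background. A bound replaced the difference where the lower signal failed that test. The scanner software's error of 10% per spot gives each canonical gene an error of 0.204 on a log2 difference. The median SD between repeated spots of 1 probe on an array was 0.0663. Both errors are technical and do not cover differences between mice.

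The 75th percentile signals were 410 on the KO macrophage array, 490 on the WT macrophage array, 338 and 432 on the KO and WT macrophage arrays with TNF, and 224 and 231 on the KO and WT neutrophil arrays. The Steap4 probe had signals of 83.1 in KO and 175 in WT macrophages, 12.8 and 49.2 with TNF, and 36.0 and 48.8 in neutrophils. With TNF it failed that background test in KO, and it may lie outside the deleted part, so it does not check the labels. The macrophage marker list was well above background for 10 of 10 genes on all 6 arrays, and the mature neutrophil list likewise. The arrays also held RNA of other cells. The summed level of 8 B-cell markers, in multiples of the 75th percentile signal, was 543 and 579 on the KO and WT neutrophil arrays, against 20.9 and 7.05 on the KO and WT macrophage arrays. The summed level of 8 erythroid markers was 1673 on the KO and 685 on the WT neutrophil array. The mature neutrophil markers summed to 442 on the KO macrophage array and 164 on the WT macrophage array. The 8 mesothelial and fibroblast markers summed to 149 on the KO and 265 on the WT macrophage array, 121 and 251 with TNF, and 1.40 and 1.08 on the KO and WT neutrophil arrays. The part of these cells in the differences below was not tested. In such bulk samples, fewer cells of a type and less RNA per cell cannot be told apart.

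All 76 canonical genes were well above background on all 6 arrays, with no spot saturated. Their signals ran between 25546 and 245123 on the KO macrophage array and between 30298 and 250575 on the WT macrophage array, with medians of 93620 and 102348. With TNF the medians were 81217 on the KO and 96630 on the WT array. In neutrophils they were 80899 on the KO and 93637 on the WT array. Of the other members, Rpl39l was well above background on 5 arrays, Rpl3l on 1 and Rpl10l on 0, and the remaining paralogs and Rps19bp1 on all 6. Rpl3l is known from skeletal muscle and heart, and Rpl10l and Rpl39l from the testis.

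**Figure D1:**
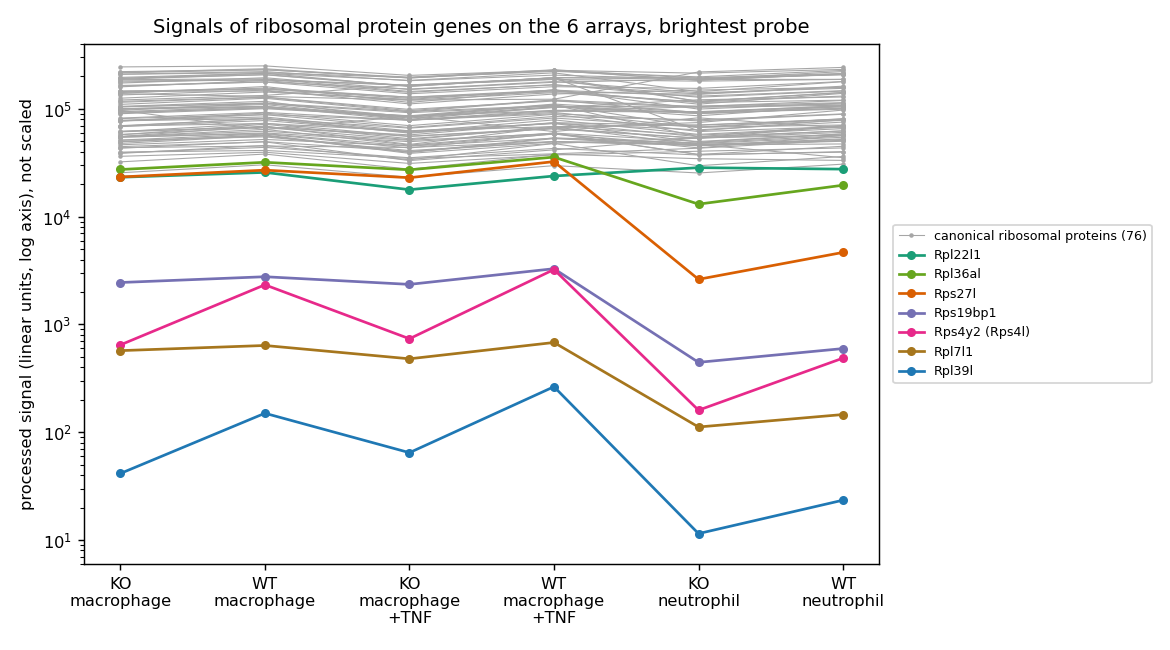
Processed signal (linear units on a log axis, not scaled between arrays) of the brightest probe of each gene on the 6 arrays, KO left of WT in each condition. Grey lines are the 76 canonical genes and coloured lines the paralogs well above background on at least 5 arrays, with Rps19bp1. Rps4y2 and Rpl39l dip on the 3 KO arrays, and Rpl36al, Rps27l, Rps19bp1, Rps4y2, Rpl7l1 and Rpl39l are lower on the neutrophil arrays.

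The annotated starts of the genes show the feature for which this family is known. Of the canonical genes, 56 were matched to a RefSeq start (GRCm38.p6), and 13 of these (23.2%) had a C followed by at least 4 pyrimidines (C or T) exactly at the annotated start on the sense strand. Among all 27025 genes with a RefSeq start, 813 did (3.01%), among 7 matched paralogs 0, and among 69 mitochondrial ribosomal protein genes 0. Counting any such run that begins within 10 bases of the start on either side, the shares were 60.7% of the canonical genes (34), 71.4% of the paralogs (5 of 7), 44.9% of the mitochondrial ones and 34.4% of all genes. An annotated start can lie some bases away from the one a cell uses, and these letters are a description, not a measured start. The sense-strand sequences below span the annotated start of genes described further on and of further genes with a long run, with the first such run from the 5′ end in capitals where the search found one, and any later run left in lower case.
Rps6, chr4:86857348-86857377, minus strand: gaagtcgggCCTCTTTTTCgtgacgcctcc
Rpl35, chr2:39005112-39005141, minus strand: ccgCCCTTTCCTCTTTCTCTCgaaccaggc
Rpl18, chr7:45718061-45718090, plus strand: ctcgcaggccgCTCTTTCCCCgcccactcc
Rps10, chr17:27635225-27635254, minus strand: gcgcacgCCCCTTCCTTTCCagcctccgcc
Rps2, chr17:24720053-24720082, plus strand: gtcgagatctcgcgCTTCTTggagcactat
Rps3, chr7:99483690-99483719, minus strand: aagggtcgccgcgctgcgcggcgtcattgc
Rpl24, chr16:55966265-55966294, plus strand: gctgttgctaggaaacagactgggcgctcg
Rps27l, chr9:66946076-66946105, plus strand: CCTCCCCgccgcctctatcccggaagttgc

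The first comparison asked how ribosomal protein messages differed between KO and WT macrophages without TNF. The canonical genes lay close together and close to all genes. Their median log2 difference was 0.12 (SD over genes 0.11), with 73 of 76 above 0, against a median of 0.07 over 24601 genes tested. None of the 76 was called, where 5.66% of all genes tested were called in either direction. Of the canonical genes 97.4% lay within 0.25 of 0, against 59.9% of all genes tested. Among the 886 other genes at least as bright as the dimmest canonical gene the share was 77.7%, with a median of 0.14. Of these bright genes 0.45% were called. The sign of the canonical median depended on the scaling, since it was -0.04 under quantile normalization and -0.04 once the intensity trend was removed.

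Large and small subunit genes behaved alike in KO against WT macrophages, with medians of 0.11 over 46 and 0.14 over 30 genes. The 3 stalk proteins, which recruit the elongation factors, were at 0.10 (Rplp0), 0.12 (Rplp1) and 0.16 (Rplp2). Rps6, the substrate of S6 kinase, had signals of 57883 in KO and 67111 in WT macrophages and a scaled difference of 0.04. Rpl5 and Rpl11, which bind the p53 regulator MDM2 when free of the ribosome, were at 0.02 and 0.05. Rps19, the gene most often mutated in human Diamond-Blackfan anaemia, was at 0.21. Rpl38, known in the mouse for its role in translating Hox messages, was at 0.07, and Rpl10a was at 0.10. All of these except Rps19 are smaller than the technical error of 0.204.

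The canonical genes at the edges of the range were Rpl13a (-0.07), Rps2 (-0.06) and Rpl3 (-0.00) at the low end and Rps3 (0.85), Rps27 (0.34) and Rps28 (0.25) at the high end. Rps27 had signals of 138182 in KO and 130527 in WT macrophages, and its other 3 probes gave 0.26, 0.23 and 0.31. Of the 4 probes, 3 overlap by at least 44 bases, so they are not independent of each other. The files place the brightest Rps27 probe on chromosome 9 (114891509 to 114891568, mm9), whereas RefSeq has the gene on chromosome 3, so that its signal may come in part from another copy. For Rps29 the brightest probe is likewise placed on chromosome 2, with the gene on chromosome 12, and for the other 74 canonical genes probe and gene lay on the same chromosome.

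Rps3, a small subunit protein that also takes part in DNA repair and NF-kB signalling, stood furthest from the other canonical genes, but only by 1 of its 3 probes. That probe, A_55_P2109222, had signals of 97028 in KO and 64201 in WT macrophages, 85734 and 61598 with TNF, and 82606 and 66287 in neutrophils. KO exceeded WT in all 3 pairs, with differences of 0.85, 0.83 and 0.36. The probe A_51_P318640 had 28839 in KO and 38992 in WT macrophages, and its differences were -0.18, -0.28 and -0.09. The probe A_55_P2038237 was at -0.04, -0.06 and -0.40. With all 3 probes averaged, the Rps3 difference was 0.21 without TNF and 0.16 with TNF, and -0.04 in neutrophils. The longest unbroken run shared by the first and second of these probes is 11 bases. On either side of the run marked below their bases are largely alike too, so they need not read different parts of the gene. Their first 30 bases are shown because the direction of Rps3 turns on which of them is read, with the run shared by the first pair within these bases in capitals.
A_55_P2109222: cagggtcttggcAGCTGCATCTagaggctg
A_51_P318640: gtcttggcgAGCTGCATCTggaggcgattt
A_55_P2038237: agaaagtgttaatgtgtagccctggctggc
The files place the first on chromosome 7 from 106627408 to 106627786, a span longer than the 60 bases of a probe, and the third from 106626430 to 106626489 (mm9, minus strand).

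**Figure D2:**
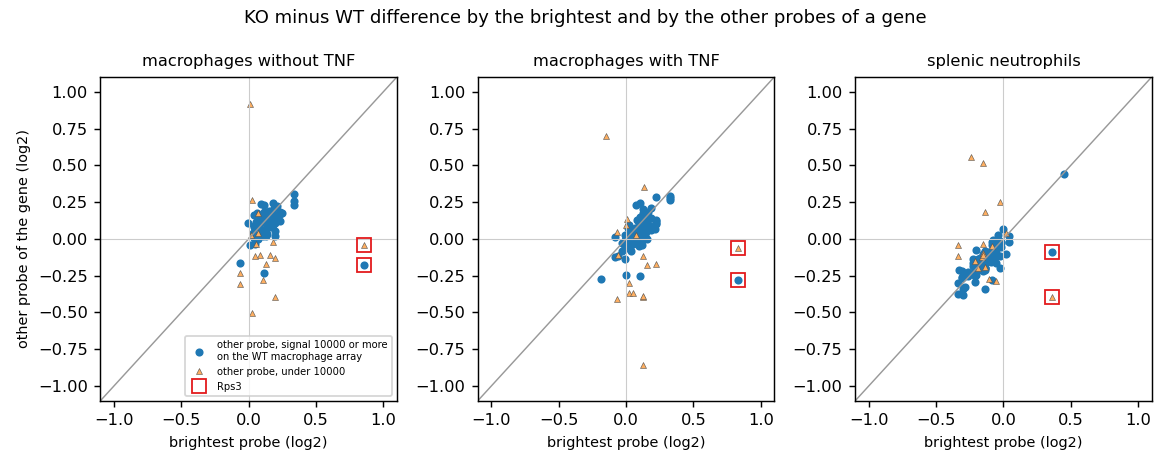
Log2 difference, KO minus WT, of each further probe of a canonical gene (vertical) against that of the gene's brightest probe (horizontal), for macrophages without TNF, macrophages with TNF and splenic neutrophils. Points are 98 further probes of 56 genes, triangles are those under a signal of 10000 on the WT macrophage array, and the line marks equal values. Most circles follow the line, and the Rps3 probes, in red squares, lie below it in all 3 panels.

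The further probes of the other canonical genes mostly followed the brightest one. Over 98 further probes of 56 genes, those well above background on all 6 arrays, the median gap between the differences was 0.06 for macrophages without TNF, 0.07 for those given TNF and 0.04 for neutrophils. The same sign was found for 80.6%, 70.4% and 89.8% of them. Some genes had a probe far from the brightest one. The dimmer of the 2 Rpl15 probes, for example, had signals of 2613 in KO and 1653 in WT macrophages and a difference of 0.92, while the brighter one was at 0.01. A single probe of Rpl23 was spotted 10 times on each array, which shows the technical scatter of 1 gene. Its mean signal was 3448 ± 172 on the KO and 4649 ± 270 on the WT macrophage array (SD, 10 spots each). After scaling its log2 means were 3.07 in KO and 3.24 in WT, lower in KO. The brightest Rpl23 probe went the other way, with a difference of 0.13.

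The genes called in KO against WT macrophages were both paralogs. Rps4y2, which RefSeq names Rps4l and annotates as a transcribed pseudogene, had signals of 646 in KO and 2332 in WT macrophages, 737 and 3233 with TNF, and 160 and 487 in neutrophils. All 3 KO arrays lay below their WT partners, and the log2 differences were -1.59, -1.78 and -1.56. Rpl39l, a copy of Rpl39 known from the testis, had signals of 41.4 in KO and 150 in WT macrophages, 64.6 and 264 with TNF, and 11.5 and 23.4 in neutrophils. Its differences were -1.60 without TNF and -1.68 with it. In KO neutrophils the Rpl39l signal failed the background test, and the bound of -0.98 did not reach 2-fold. Each had 1 probe, so no other probe of the gene can be set beside it. Rpl3l was above background only on the KO macrophage array, with signals of 13.7 in KO and 7.50 in WT macrophages, and its bound did not reach 2-fold. With normexp background correction Rpl39l was at -0.79 in macrophages without TNF and no longer called.

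These were 2 of 84 members tested in macrophages without TNF, where 1.57% of all genes tested were lower and 4.09% were higher. With TNF they were again 2 of 83 members tested, beside 2.69% of all genes lower and 6.99% higher. In neutrophils Rps4y2 was the only member called, 1 of 83, beside 4.74% lower and 3.64% higher. The members' counts lie near or below these shares. Their parent genes did not follow them: Rps4x, the X-linked gene of the same protein family, was at 0.15, 0.09 and -0.07 without TNF, with it and in neutrophils, and Rpl39 was at 0.07, 0.08 and -0.19. The probe of Rps4y2 lies on chromosome 6 from 148304043 to 148304102 and that of Rpl39l on chromosome 16 from 10174657 to 10174716 (mm9, both plus strand). Their first 30 bases are shown because both calls rest on these single probes.
Rps4y2, A_55_P2001628: ggggaaggggcgtttacgtttgtttatact
Rpl39l, A_55_P1969392: ctgtgctttagtgagttcattcagcagttc

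**Figure D3:**
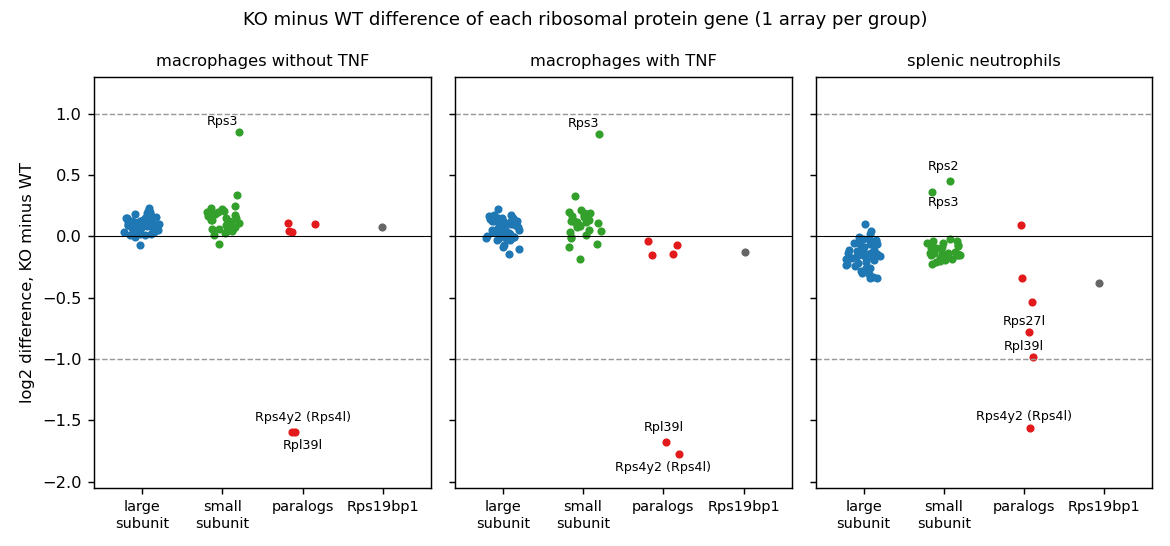
Log2 difference, KO minus WT, of each gene well above background on at least 5 arrays, by class (large subunit, small subunit, paralogs, Rps19bp1) in the 3 conditions, with 1 array per group. Dashed lines mark 2-fold. The canonical genes cluster above 0 in both macrophage panels and below 0 in neutrophils, and the points past the lower line are Rps4y2 in all 3 panels and Rpl39l in macrophages.

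With TNF, KO against WT macrophages gave a canonical median of 0.09 (SD over genes 0.13), with 59 of 76 above 0, against 0.05 over 23718 genes. None of the 76 was called, where 9.67% of all genes tested and 0.68% of the equally bright ones were called in either direction. Of the 76, 97.4% lay within 0.25 of 0, against 48.8% of all genes tested and 72.1% of the equally bright ones. Under quantile normalization the canonical median was -0.07 and with the intensity trend removed -0.04. The highest members were Rps3 (0.83), Rps27 (0.33) and Rpl17 (0.22), and the lowest after Rps4y2 and Rpl39l were Rps2 (-0.19) and Rpl7l1 (-0.15). Over the 76 canonical genes the differences without and with TNF had a Pearson correlation of 0.888 and a Spearman correlation of 0.765, from sets of arrays with none in common. Without Rps3 the Pearson value was 0.772. The probes and their brightness are the same in both, and the labels number the mice alike, so the cells may also come from the same mice.

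The next comparison asked the same of splenic neutrophils. Here the canonical genes were lower in KO by a small amount, with a median of -0.14 (SD over genes 0.12) and 71 of 76 below 0, against -0.01 over 23985 genes tested. The median of the equally bright genes was -0.07. The canonical median was negative in every setting tried with scaling, between -0.16 and -0.08. None of the 76 was called, where 8.38% of all genes tested and 1.35% of the equally bright ones were called in either direction. Of the 76, 86.8% lay within 0.25 of 0, against 47.0% of all genes and 75.6% of the bright ones. Large and small subunit genes had the same median of -0.14. Beside this, the KO neutrophil array had the higher erythroid sum given above. The sum of plasma cell markers was 236 in KO and 696 in WT neutrophils, and that of macrophage markers was 267 in KO and 495 in WT. Mature neutrophil markers summed to 2754 in KO and 2232 in WT neutrophils. Their median difference, KO minus WT, was 0.95, with 10 of 10 above 0. The part of these cells in the neutrophil differences was not tested.

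Among single canonical genes in neutrophils, Rps2 and Rps3 stood above the rest. Rps2 had signals of 46644 in KO and 35257 in WT neutrophils, a difference of 0.45. Its second probe, with no more than 4 bases in a row in common with the first, had 44703 in KO and 34016 in WT neutrophils and a difference of 0.44. In macrophages both Rps2 probes were below 0, at -0.06 and -0.16 without TNF and -0.19 and -0.27 with TNF. The files place the second probe on chromosome 17 at 42864841 to 42864900, far from the first at 24857583 to 24857642 (mm9). That place is too far from the first to lie in the same gene, so its signal may come in part from another copy. The first 30 bases of both probes are shown because both gave the same difference while sharing no stretch.
Rps2, A_55_P2048454: tgatttcttcctgggtgcttccctaaagga
Rps2, A_55_P2070347: caagacttacaggtacctgactctcgacct

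The lowest canonical genes in KO neutrophils were Rpl13a, known in human cells as part of an interferon-gamma-activated inhibitor of translation, at -0.34, Rpl26 at -0.34 and Rpl3 at -0.33. The paralogs spread more widely. Rps27l, a close relative of Rps27 whose gene is a target of p53, had signals of 2622 in KO and 4659 in WT neutrophils, a difference of -0.78 that missed the 2-fold rule. Rpl36al was at -0.54 with signals of 13068 and 19579, while its relative Rpl36a was at -0.06. Rps19bp1 was at -0.38 and Rpl7l1 at -0.34. Rpl22l1, which can replace Rpl22, was at 0.09, beside -0.11 for Rpl22. Rplp0 and Rpl5 were at 0.04 and 0.10, Rplp1 and Rplp2 at -0.11 and -0.06, Rps6 at -0.15, Rpl11 at -0.29, Rps19 at -0.05, Rpl38 at -0.14, and Rpl10 and Rpl10a at -0.23 and -0.13.

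Over the 3 conditions together, KO was set against WT with condition as a block, a fit added after the data were seen. No member passed limma's test at an adjusted p of 0.05, among 83 tested, beside 0.0210% of 23761 genes. At an unadjusted p of 0.05 there were 3 members, against 16.0% of all genes. Rps4y2 was at -1.64 ± 0.10 (SE, 3 pairs, limma adjusted p = 0.067), and lower in 3 of 3 pairs. Rpl39l was at -1.42 ± 0.21 (limma adjusted p = 0.14) and Rps3 at 0.68 ± 0.13 (limma adjusted p = 0.19), each with 1 direction in 3 of 3 pairs. The canonical median was 0.03, and -0.05 under quantile normalization. Without the neutrophil pair 12 of 83 members passed, 10 of them canonical, beside 2478 genes higher and 1310 lower of 23761. The remaining pairs may hold cells of the same mice. The spread in this fit is that between conditions, not between mice.

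The TNF comparisons asked how the messages differed after 24 hours with TNFα. Culture time may have differed as well, and it cannot be told apart from TNF here. The canonical median, TNF minus no TNF, was 0.08 in KO macrophages with 66 of 76 above 0, and 0.12 in WT macrophages with 71 of 76 above 0. Over all genes tested the medians were 0.02 and 0.02. The 886 equally bright genes lay above the canonical ones, at 0.11 in KO and 0.15 in WT. No canonical gene and no other member was called in KO or WT macrophages, where 8.19% and 9.01% of all genes were called in either direction. By direction these were 4.46% higher and 3.73% lower in KO, and 4.41% higher and 4.61% lower in WT. The sign of both medians depended on the scaling: they were -0.11 in KO and -0.09 in WT macrophages with quantile normalization, and -0.09 and -0.08 with the intensity trend removed. The mitochondrial ribosomal protein genes had medians of 0.17 in KO and 0.29 in WT macrophages, with Mrpl38 higher in both.

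Rpl24, a large subunit protein at the bridge between the subunits, was the canonical gene with the largest TNF difference in both genotypes. It had signals of 166716 with TNF and 120841 without in KO macrophages, and 193741 with TNF and 133283 without in WT macrophages. Both arrays with TNF lay above both without. The difference was 0.74 in KO and 0.72 in WT macrophages, short of 2-fold, and between 0.46 and 0.82 in the settings where it moved. The 3 probes of Rpl24 gave 0.74, 0.77 and 0.82 in KO and 0.72, 0.80 and 0.93 in WT macrophages. The first pair share 54 bases, and the last lies apart from them, from 55970228 to 55970287 on chromosome 16 (mm9, plus strand). Their first 30 bases are shown because they are the basis of the single canonical gene that stood apart with TNF.
Rpl24, A_55_P1956938: ttggtgggaaacgctagtgtggtagagcag
Rpl24, A_55_P2059556: ggaaacgctagtgtggtagagcagagttgg
Rpl24, A_55_P2004333: tgccaaggaagcaaaaaaggctaagcaggc
Far below it among canonical genes came Rps19, at 0.28 in KO and 0.32 in WT macrophages, and Rpl18, at 0.24 and 0.35.

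**Figure D4:**
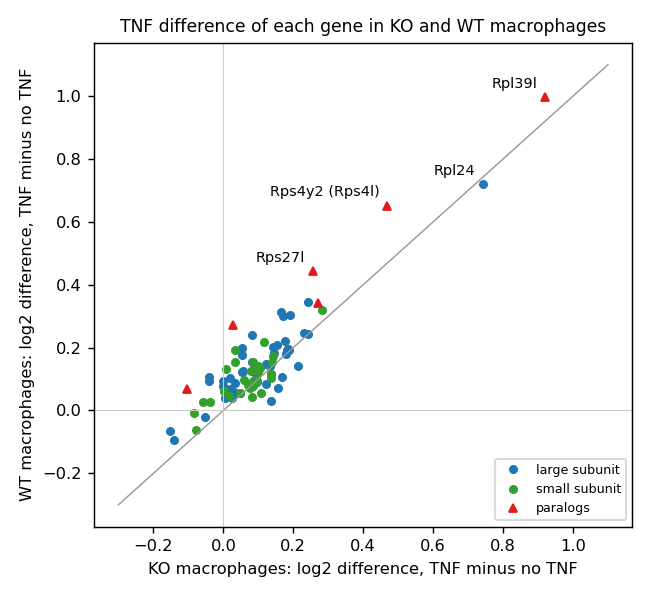
Log2 difference, TNF minus no TNF, of each gene in KO macrophages (horizontal) and WT macrophages (vertical), with 1 array per group. Points are genes well above background on at least 5 arrays, triangles are paralogs, and the line marks equal values. Rpl24 stands apart from the other canonical genes at 0.74 and 0.72, and the labelled paralogs lie above the line.

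Among the lowest members with TNF were Rpl10a (-0.14) and Rpl22l1 (-0.11) in KO macrophages and Rpl10a (-0.09) and Rps7 (-0.06) in WT macrophages. Rpl10a is known for its presence on only some ribosomes in mouse cells. The paralogs again spread most. Rpl39l was at 0.92 in KO and 1.00 in WT macrophages (0.9985 before rounding, just short of the rule), and Rps4y2 was at 0.47 and 0.65. The WT value of Rpl39l passed the rule, at 1 member called, with the median scaling and with the intensity trend removed. Rps27l was at 0.26 in KO and 0.44 in WT, Rpl36al at 0.27 and 0.34, and Rps19bp1 at 0.22 and 0.43. Rps6 was at 0.12 in KO and 0.22 in WT macrophages, Rpl38 at 0.24 and 0.24, Rplp2 at 0.15 and 0.18, and Rplp1 at -0.04 and 0.11. Over the 76 canonical genes, the differences in KO and WT macrophages had a Pearson correlation of 0.869, or 0.780 without Rpl24, from sets of arrays with none in common that use the same probes.

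The KO TNF difference minus the WT TNF difference asked whether TNF acted differently in KO macrophages. The canonical genes stayed close to 0, with a median of -0.03, and all 76 lay within 0.25 of it, from -0.16 to 0.11, against 66.4% of 21750 genes tested and 91.2% of the equally bright genes. No member was called, where 2.11% of all genes tested and 0 of the 886 equally bright genes were. The lowest members were Rpl7l1 (-0.25), Rps19bp1 (-0.21) and Rps27l (-0.19), and the highest were Rpl3 (0.11), Rpl13a (0.09) and Rpl27a (0.07). Genes for ribosome assembly in the nucleolus lay lower, with a median of -0.32 and 33 of 34 below 0, against a median of -0.02 over all genes, and none of the 34 was called. Cycling markers moved with them, with a median of -0.25 (7 of 8 below 0), as did mesothelial and fibroblast markers at -0.28 (7 of 7 tested), and their part was not tested.

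The last comparison set neutrophils against macrophages without TNF within each genotype, 2 cell types from different organs whose handling also differed. The canonical ribosomal proteins were higher in neutrophils after scaling. Their median was 0.72 in KO with 75 of 76 above 0, and 0.97 in WT with 76 of 76 above 0, against 0.10 and 0.12 over all genes tested. The 886 other genes at least as bright as the dimmest canonical gene also lay higher, with medians of 0.46 in KO and 0.60 in WT. Of these 886 bright genes, 275 were called in KO and 379 (42.8%) in WT in either direction, against 9.21% and 43.4% of the canonical genes. The rule called 7 of 76 canonical genes higher in KO and 33 of 76 in WT, where 25.3% and 26.4% of all genes were called higher. No canonical gene was called lower, where 19.6% and 17.9% of all genes were, and in either direction 44.9% in KO and 44.4% in WT. The difference was not common to all ribosomes: the 76 mitochondrial ribosomal protein genes had medians of -0.76 in KO and -0.53 in WT, with 75 and 67 of them below 0.

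How far the canonical genes lay above 0 depended on the scaling. The medians were 0.29 in KO and 0.33 in WT with quantile normalization, and 0.29 and 0.37 with the intensity trend removed. Without scaling between arrays they were -0.15 and -0.11, while the median of all genes was then -0.76 and -0.95. The signals of these genes on the neutrophil arrays were thus close to those on the macrophage arrays, where most other signals were lower. The gap between the cytosolic and the mitochondrial medians was 1.48 in KO and 1.49 in WT, and between 0.73 and 1.49 in every setting tried with scaling. The B-cell and erythroid sums were also higher on the neutrophil arrays, and the mesothelial and fibroblast sum was lower there. The part of these cells in the difference was not tested.

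**Figure D5:**
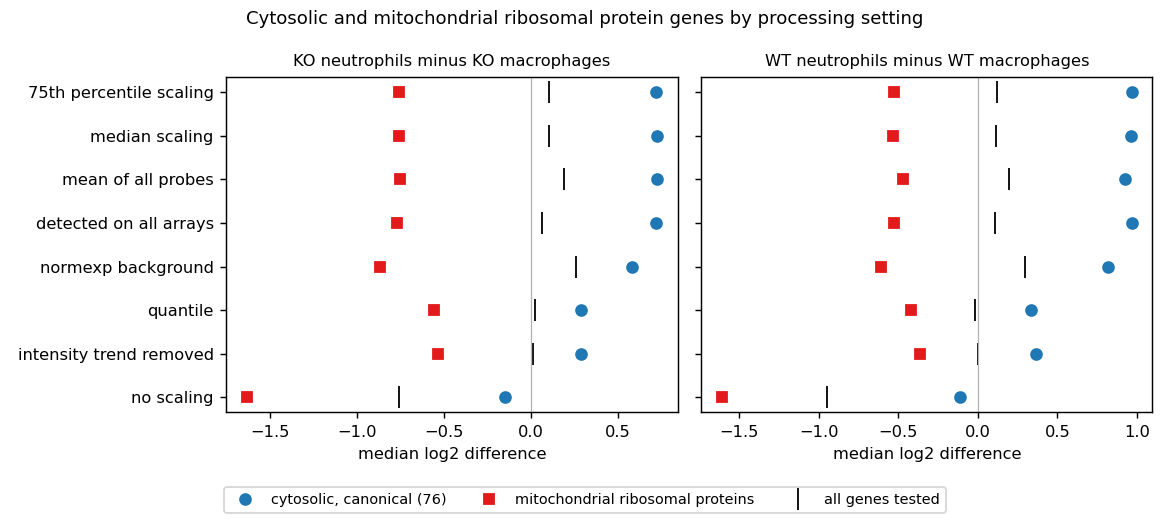
Median log2 difference, neutrophils minus macrophages without TNF, in KO (left) and WT (right) under 8 processing settings, for the 76 canonical cytosolic genes (circles), the mitochondrial ribosomal protein genes (squares) and all genes tested (bars). The circles lie to the right of the squares in every setting, and to the left of 0 where arrays were not scaled.

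Rps27, a small subunit protein with a zinc finger, had the largest difference among canonical genes. Its signals were 220149 in KO neutrophils against 138182 in KO macrophages, and 242536 in WT neutrophils against 130527 in WT macrophages. Both neutrophil arrays lay above the macrophage arrays before any scaling. The differences were 1.54 in KO and 1.98 in WT, and the other 3 probes gave between 1.47 and 1.63 in KO and between 1.83 and 2.03 in WT. In KO the value was 0.97 under quantile normalization and 0.93 once the intensity trend was removed, both under 2-fold, and without scaling it was 0.67 in KO and 0.89 in WT. Its relative Rps27l went the opposite way, with signals of 2622 in KO neutrophils against 23348 in KO macrophages, and 4659 in WT neutrophils against 27006 in WT macrophages. The differences were -2.28 in KO and -1.45 in WT, a fall of 4.87-fold and 2.74-fold.

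Other canonical genes called higher in both genotypes included Rpl12, Rpl13, Rpl13a and Rps21. Rpl13a was at 1.25 in KO and 1.52 in WT, and Rpl12, a protein at the base of the stalk, at 1.23 and 1.38. In WT the rule also called Rpl3, Rpl8, Rpl9, Rpl17, Rpl18, Rpl23a, Rpl27a, Rpl30, Rpl32, Rpl36, Rpl37, Rpl37a and Rpl39 of the large subunit. Of the small subunit the genes also called in WT included Rps3, Rps3a, Rps6, Rps7, Rps9, Rps13, Rps15, Rps16, Rps18, Rps19, Rps20 and Rps24. Many of these lay close to the threshold, as Rpl3 did at 1.00, so the 2 counts do not show a difference between genotypes. Over the 76 genes the KO and WT differences had a Pearson correlation of 0.871 and a Spearman correlation of 0.876, again from sets of arrays with none in common that use the same probes.

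Rps15 was at 1.40 in WT. By the brightest probe, the smallest canonical differences were Rpl24 at -0.08 in KO and Rps2 at 0.11 in WT. Rpl24 was at 0.34 in WT, and Rps2 at 0.62 in KO. The probes of Rpl24 lay far apart in both genotypes, and those of Rps2 in KO, so these values depend on the probe. The stalk proteins lay near the median, at 0.84 and 0.90 for Rplp0, 0.73 and 0.97 for Rplp1, and 0.70 and 0.93 for Rplp2 in KO and WT. Rps6 was at 0.85 and 1.05, Rps19 at 0.98 and 1.24, Rpl5 at 0.97 and 0.89, Rpl11 at 0.54 and 0.87, Rpl38 at 0.53 and 0.74, and Rpl10 at 0.16 and 0.54.

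Among the paralogs Rpl22l1 was the only one higher in neutrophils by the rule, at 1.17 in KO and 1.18 in WT, beside 0.54 and 0.67 for Rpl22. The rule called 4 of 83 members lower in KO and 5 of 83 in WT, where 19.6% and 17.9% of all genes tested were lower. The same 4 were lower in both genotypes. Rps27l is given above, and Rps4y2 was at -1.14 in KO and -1.18 in WT. Rpl7l1 was at -1.48 and -1.05, while its parent Rpl7 was at 0.69 and 0.83. Rps19bp1 was at -1.59 and -1.13. Rpl39l was lower in WT at -1.60, and in KO it reached a bound of -0.98. Rpl36al was at -0.20 in KO and 0.38 in WT, beside 0.80 and 0.95 for Rpl36a, and Rps4x was at 0.72 and 0.95. Rpl3l and Rpl10l failed the background test on the array that was higher after scaling, so no difference is given for them here.

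Other parts of the translation machinery are given from lists. The 4 ribosomal proteins outside the name pattern followed the canonical genes, with medians of 0.19 in KO against WT macrophages, 0.15 with TNF and -0.11 in neutrophils. In neutrophils against macrophages they were at 0.78 in KO and 1.07 in WT, with Rpsa and Fau among 3 called higher in WT. Genes for ribosome assembly in the nucleolus had medians of -0.22, -0.50 and -0.07 in KO against WT, with 30, 31 and 25 of 34 below 0. In this list Polr1b, a subunit of RNA polymerase I, was lower in all 3 KO arrays, with signals of 150 in KO and 538 in WT macrophages, and Rrp12, which acts in the export of small subunits, was lower with TNF. Markers of cycling cells moved with this list, with KO against WT medians of -0.45 in macrophages (7 of 8 below 0), -0.57 with TNF (8 of 8 below 0, Top2a and Plk1 called lower) and -0.39 in neutrophils (8 of 8). Their summed levels were 108 in KO and 110 in WT macrophages and 73.6 and 89.7 with TNF. Mesothelial and fibroblast markers had medians of -0.62 (6 of 8 below 0) and, with TNF, -0.83 (8 of 8). The part of these cells in the nucleolar difference was not tested.

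Elongation factors had KO against WT medians of 0.00, -0.21 and -0.10 over 6 genes, with none called. Initiation factors had -0.02, -0.12 and -0.11 over 30, 30 and 29 genes, with none called. Of all genes tested in these comparisons, 5.66%, 9.67% and 8.38% were called in either direction. With TNF, Eif6, which keeps the subunits apart, was higher in WT macrophages, with signals of 17657 with TNF and 8975 without. Eif5b was lower there, with signals of 14.6 and 33.8. In neutrophils against macrophages, the initiation factor medians were -0.61 in KO and -0.40 in WT. Among them Eif1 was higher and Eif5a, the hypusine-carrying factor, lower in both genotypes. Other messages known to carry a TOP tract had medians of -0.06, -0.13 and -0.20 in KO against WT. Among these Gas5, a non-coding host of small nucleolar RNAs, was lower in neutrophils, with signals of 4832 in KO and 11650 in WT. Snhg1 and Snhg12, which likewise host small nucleolar RNAs, were higher in neutrophils than in macrophages in both genotypes.

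Genes of the mTORC1 and S6 kinase pathway had KO against WT medians of 0.01, -0.00 and -0.03 over 13 genes, with none called. Beside this, 5.66%, 9.67% and 8.38% of all genes tested were called in either direction. In neutrophils against macrophages Pdcd4, an inhibitor of the helicase Eif4a, and Eef2k, the kinase of the elongation factor Eef2, were among the 3 higher in both genotypes, and Rheb, the activator of mTORC1, was lower. Mitochondrial ribosomal proteins had KO against WT medians of 0.06, -0.06 and -0.25 over 76 genes. Mrpl35 was the only one called, lower on all 3 KO arrays, with signals of 14.2 in KO and 238 in WT macrophages, 9.80 and 214 with TNF, and 5.38 and 78.2 in neutrophils.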

How the data were processed

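Total RNA was labelled with Cy3 and hybridised in 1 colour, 1 array per group. Per the file headers, the authors read the scans with version 10.7.3.1 of Agilent's Feature Extraction software (named in the submitters' processing notes as well), and the deposited spot intensity is linear, background-subtracted and detrended within the array, with no normalization between arrays. All 6 arrays lay on 1 slide scanned in 1 run, so no batch could be tested. Coordinates in the files are on mm9.

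From these, log2 of the processed intensity was taken and each array's 75th percentile over gene probes subtracted, outlier spots were left out, repeated spots averaged, and the probe with the highest mean kept for each gene name. Of the members' probes, 172 matched a RefSeq gene (GRCm38.p6) by accession and 15 by symbol. Differences were formed over all genes. A limma fit (trended prior) of KO against WT with condition as a block, over genes well above background on at least 3 arrays, was added after seeing the data. Alternatives were normexp with offset 50, quantile normalization, a scaling to the median over probes well above background on all arrays, removal of the intensity trend (lowess, fraction 0.3), the mean of all probes, only probes well above background on all arrays, and canonical genes alone; no scaling was likewise added. A listed comparison of protein sequences of paralogs was not made. Python 3.11.15, numpy 2.4.6, pandas 2.3.3, statsmodels 0.14.6, R 4.3.3 and limma 3.58.1 were used. The number of arrays limits the precision.

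The members and all lists were chosen with earlier results of these data known. The rule for named genes took every member called in a comparison, the 3 highest and 3 lowest members well above background on all 6 arrays, a fixed set of well-studied genes and paralog pairs, and at most 2 called genes per direction from every other list; a few genes that the rule takes are not reported here by name. Rpl15, Rpl18, Rpl23, Rpl26 and Rps29 were named after their values were seen, and Rpl35, Rpl18 and Rps10 for their sequences.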

Additional observations from a re-analysis of the deposited data

Results flagged for a closer look

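The canonical ribosomal protein genes, like other bright genes, differed in direction between cell types. Their median log2 difference, KO minus WT, was -0.14 in splenic neutrophils, with 71 of 76 genes below 0, and 0.12 in macrophages without TNF, with 73 of 76 above 0. The 886 equally bright genes went the same way, with medians of -0.07 in neutrophils and 0.14 in macrophages without TNF. All genes tested were at -0.01 and 0.07 in that order. The difference between the cell types was not tested, since each group had 1 array. With quantile normalization, with the intensity trend removed and without scaling between arrays, the canonical macrophage median was negative too, at -0.04, -0.04 and -0.14. The opposite direction of the canonical genes thus held only under the other settings tried.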

How the results depend on the processing

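Within a condition no array was left out, since each group had 1. In the paired fit of KO against WT over 3 conditions, 0 members passed with quantile normalization and with an untrended prior. With 1 pair left out between 0 and 12 members passed, the 12 without the neutrophil pair. Without that pair 2478 genes were higher and 1310 lower of 23761 tested. The other values here are over all members, where "lower" and "higher" are counts by the rule of size, and with another setting the cause of a shift was not tested.

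With quantile normalization the member medians, KO minus WT, were -0.038 in macrophages (0.11 as reported) and -0.079 with TNF (0.08 as reported). The TNF medians were -0.10 in KO and -0.085 in WT (0.09 and 0.12 as reported). Neutrophils against macrophages gave 0.28 in KO and 0.31 in WT (0.70 and 0.96 as reported). There 1 and 2 members were higher (8 and 34 as reported), beside 5378 of 25172 and 5507 of 25483 genes tested. In KO neutrophils 2 members were lower than in WT (1 as reported), beside 1339 of 23972 genes. With the intensity trend removed, in the same order, the medians were -0.037, -0.048, -0.086, -0.072, 0.26 and 0.33. In neutrophils against macrophages 1 and 2 members were higher in KO and WT, beside 5073 of 24938 and 5559 of 25072 genes. In KO neutrophils 2 members were lower than in WT, beside 1237 of 23985 genes. With TNF in WT 1 member was higher, beside 1268 of 24615 genes. Normexp left the medians of neutrophils against macrophages at 0.57 in KO and 0.81 in WT. There 4 and 14 members were higher, beside 4105 of 23781 and 5435 of 23607 genes. In WT 3 members were lower (5 as reported), beside 3434 of 23607 genes. In KO against WT macrophages without TNF 1 member was lower (2 as reported), beside 106 of 23975 genes. Median scaling gave 1 member higher with TNF in WT, beside 1089 of 24615 genes. Probes detected on all arrays left 1 member lower in KO macrophages with and without TNF, since Rpl39l dropped out. Beside it 290 and 119 of 20162 genes were lower. Canonical genes alone left 0 lower in every comparison.

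Without scaling, the medians were -0.15, -0.28, -0.19 and -0.058 in the order used above. The KO minus WT difference of TNF differences was at -0.14 (-0.04 as reported). For neutrophils against macrophages the medians were -0.17 in KO and -0.12 in WT. There 0 and 0 members were higher, beside 2970 of 25190 and 2940 of 25575 genes. This setting moved the medians of all genes too. For the last 2 they were -0.76 in KO and -0.95 in WT, and for KO against WT neutrophils -0.06 (-0.01 as reported). Only positions relative to these medians can thus be read. The setting left 2 members lower in KO neutrophils, beside 1231 of 23983 genes. Rps4y2 was lower in KO than in WT in every setting that kept it and every condition, between -2.13 and -1.28. The scanner's error of 0.204 exceeds most canonical KO minus WT differences, and dim probes such as that of Rpl39l lie near background.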
